A study of Homo sapiens with 4 samples.

Results

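The ATP-binding cassette (ABC) genes were examined in MHCC97H cells, an established human hepatocellular carcinoma line, with and without knockdown of UBXN1. They were chosen by symbol, as the protein-coding genes of the deposited count table named ABCA, ABCB, ABCC, ABCD, ABCE, ABCF or ABCG with a number, leaving out TAP1 and TAP2. The rule found 46 genes among 61541, of which 45 were ABC genes in their own right and 1, ABCF2-H2BK1, was a read-through gene that shares exons with ABCF2. RNA was sequenced from 2 libraries of control cells (shCon) and 2 libraries of cells carrying a short hairpin RNA against UBXN1 (shUBXN1). Both groups were cultured cells of 1 line, and the sources used here do not say which hairpin was used or whether the libraries of a group came from separate cultures, so p-values measure the spread between these libraries, which may be technical. The comparison addresses which genes change when UBXN1, a ubiquitin-binding cofactor of the ATPase VCP, is lowered.

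ABC proteins bind and hydrolyse ATP on paired nucleotide-binding domains, and most use that energy to move a substrate across a membrane. In the liver they export bile salts, phospholipid, sterol and drug or bilirubin conjugates at the canalicular face of the hepatocyte, load cholesterol onto lipoproteins, and serve mitochondria, peroxisomes and lysosomes. ABCE and ABCF proteins have no membrane domain and act on ribosomes and translation instead.

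Depth was 27380508 and 24305174 counts for the control libraries and 23433826 and 23373700 for the knockdown libraries. The ABC genes took 0.279% and 0.273% of them in shCon and 0.271% and 0.266% in shUBXN1. UBXN1 itself (chromosome 11, 62676498 to 62679117) had 1788 and 1817 counts in control and 416 and 433 counts after knockdown (edgeR's quasi-likelihood test, adjusted p = 9.98e-10), so 24.5% of the control level was left after scaling. Counts on the mitochondrial genome made up 5.28% to 5.59% of the shCon libraries and 7.43% to 8.27% of the shUBXN1 libraries. Of 13 hepatocyte and liver cancer markers, keratin genes KRT8 and KRT18 were the highest (4050 and 1300 TPM in shCon, where TPM is the count scaled by gene length and library), HNF4A was at 25.3 TPM in shCon, GPC3 was listed at 0, and ALB was at 15.4 TPM in shCon and 4.10 TPM in shUBXN1. The leukocyte gene PTPRC was at most 0.0321 TPM on average in either group and CD3E was listed at 0. CD68, at 100 TPM in shCon and 88.0 TPM in shUBXN1, and LYZ, below 1 TPM, were lower. LYZ had counts high enough to test only in the shCon libraries, so its call is a description. Among all genes tested, 28% were higher and 28.2% lower at an adjusted p under 0.05. Of 4 endothelial markers, 2 of 3 tested were higher, and their summed level went from 15.2 TPM in both shCon libraries to 31.9 and 32.1 TPM, most of it KDR and PECAM1. Of 5 stellate or fibroblast markers, 1 of 2 tested was higher (COL1A1, below 1 TPM) and 1 lower (LRAT). COL1A1 had counts high enough to test only in the shUBXN1 libraries, so its call is a description. Of 4 cholangiocyte markers, KRT7 was higher and KRT19 lower. The part of these markers in the results was not tested. In bulk RNA, fewer cells of a kind and less RNA per cell cannot be told apart.

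Members of the ABC family moved in both directions. Counts were high enough to test 38 of the 46 genes. At a Benjamini-Hochberg adjusted p under 0.05 from edgeR's quasi-likelihood test, 11 were higher and 13 were lower in shUBXN1. Among all 16863 genes tested, 28% were higher and 28.2% lower at the same threshold, so the 28.9% and 34.2% of tested ABC genes lay near the background. Among the protein-coding genes tested the shares were 29.7% and 32.2%, or 61.8% in either direction, against 63.2% of the tested ABC genes and 56.2% of all genes tested. The median log2 fold change was -0.08 over the 38 ABC genes, against 0.02 over all genes tested and -0.02 over the protein-coding genes tested. With a fold change of 2 or more as well, 5 ABC genes were higher (13.2%, against 11.3% of all genes tested) and 3 were lower (7.89%, against 5.79%). Among protein-coding genes those shares were 10.3% and 5.64%. With the unadjusted p in its place, ABCA10 joined the lower genes, and the shares of all genes tested were 11.8% higher and 6.09% lower (10.6% and 5.77% of protein-coding genes). The higher genes were ABCA3, ABCA7, ABCB11, ABCC5 and ABCG4, and the lower ones were ABCA4, ABCC11 and ABCC12. ABCG4, ABCC12 and ABCA10 entered the test only through the group in which they were high, so they are no support for these counts. With at least 10 counts required in every library, none of these genes was tested. Of 34 ABC genes, 10 were then higher and 10 lower, where 29.7% of all genes tested were called in each direction. In counts scaled to library size, the groups did not overlap for any of the 24 ABC genes called in the main test. They did not overlap for some genes not called either, such as ABCB8 and ABCG1, so non-overlap adds no support to a call. Its share over all genes tested was not counted. In the plot of ABC genes among all genes tested, the members lie within the cloud at every level of expression.

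**Figure D1:**
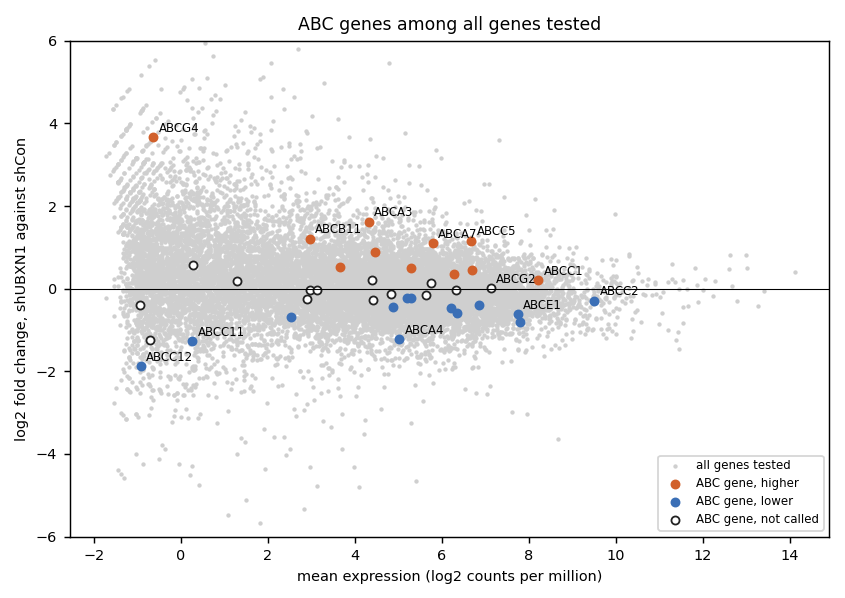
Mean expression in log2 CPM (x axis) against the log2 fold change of shUBXN1 over shCon (y axis) for all genes tested (grey, 35 of which lie outside the plotted range) and for the 38 ABC genes (filled where the adjusted p was under 0.05, open where it was not). The ABC genes sit among the other genes, with ABCG4 at 3.66, ABCA3 at 1.62 and ABCC12 at -1.87.

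Levels differed widely within the family, and 32 or 33 of the genes reached 1 TPM in each library. ABCC2 was the highest, at 284 and 268 TPM in shCon and 239 and 230 TPM in shUBXN1, and made up 21.4% of the summed TPM of the family on average. ABCE1 and ABCC1 followed, with means over the 4 libraries of 112 and 92.0 TPM. ABCC3, ABCF1 and ABCG2 were next, at 79.0, 68.2 and 67.5 TPM, and these 6 genes together held 56.5% of the family's TPM. At the other end, ABCC8 had no count in any library, which allows a level of up to 0.113 to 0.128 CPM (counts scaled to library size, from 3 counts in each library, counting error only). ABCA12, ABCB5 and ABCD2 had at most 2 counts in all.

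**Figure D2:**
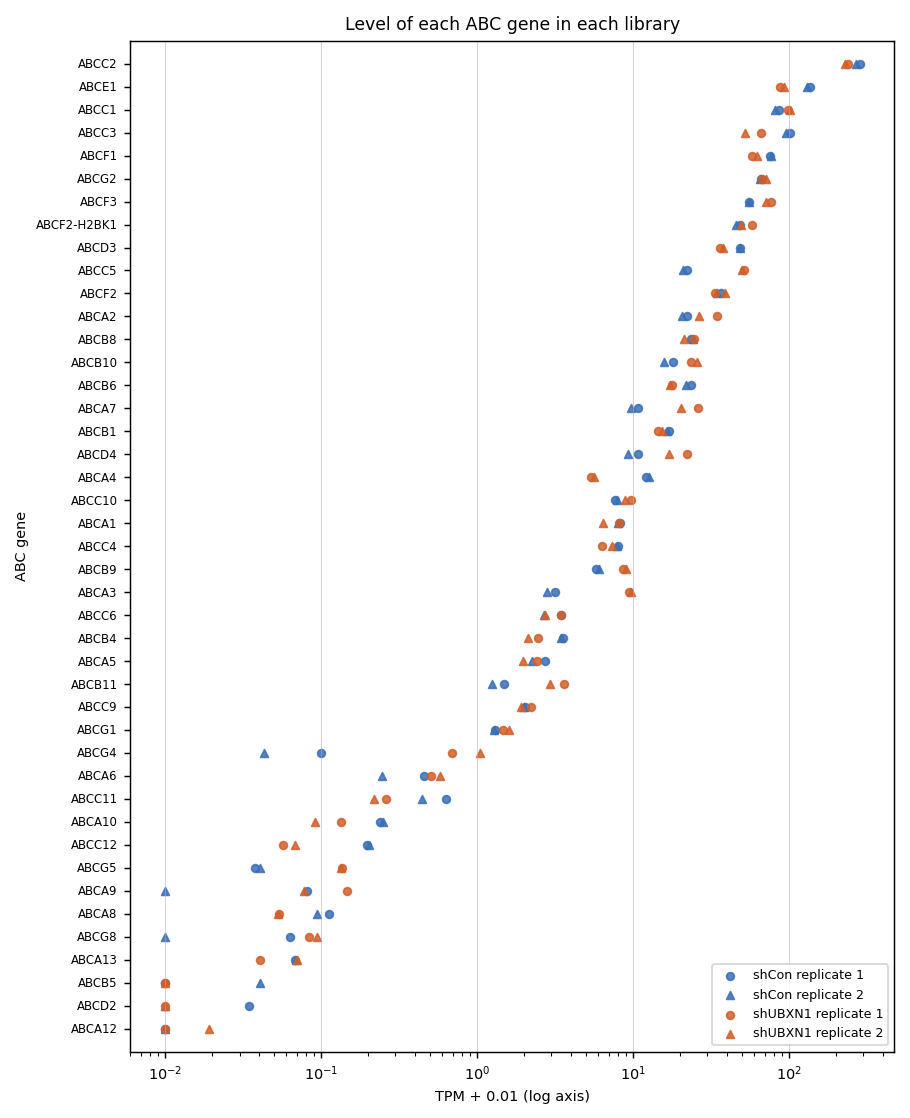
Level of 43 ABC genes with at least 1 count (y axis, ordered by mean) in each library (x axis, TPM + 0.01 on a log axis, so that a gene with 0 sits at the left edge), with shCon in blue, shUBXN1 in orange and replicates 1 and 2 as circles and triangles. ABCC2 stands at 230 to 284 TPM, and most genes above 1 TPM have 4 points close together.

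The promoters of ABC genes that moved, or that stand out by level, are shown for context. Promoter entries from RefSeq on GRCh38.p14 were found for 36 of the 46 genes, and the 250 bases before the start were searched on both strands for 7 short motifs. Each line below gives 30 bases in the direction of the gene, with the matched motif in capitals. Starts are those of RefSeq and can lie inside the longer GENCODE gene, as for ABCC5.
ABCC5 (chr3:184017895-184017924, minus strand, TATA box at 28 bases before the start): ggccgatgccgcTATAAAggcttgttttgc
ABCA1 (chr9:104928169-104928198, minus strand, TATA box at 31 bases before the start): tgcagccgaatcTATAAAaggaactagtcc
ABCA7 (chr19:1039870-1039899, plus strand, GC box at 225 bases before the start): ctcgttcccggaGGGCGGcctgcctgggac
ABCA3 (chr16:2340780-2340809, minus strand, GC box at 69 bases before the start): gggcacctgcagGGGCGGccgactgcgcac
ABCG4 (chr11:119148982-119149011, plus strand, GC box at 58 bases before the start): ccgcgggctgccGGGCGGcgcgggcccttt
ABCE1 (chr4:145098202-145098231, plus strand, CRE at 98 bases before the start): tcgcagctcaaTGACGTCAtatctccctac
These are ABC genes that rose by 2-fold or more and hold a match (ABCA3, ABCA7, ABCC5 and ABCG4), the abundant ABCE1 and the sterol exporter ABCA1.

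The GC box GGGCGG was found in 50.0% of the ABC promoters and 42.6% of 35116 promoter entries, and the CCAAT box (CCAAT) in 19.4% and 32.0%. For each ABC gene only the entry nearest the GENCODE gene start was used, out of 54 entries. The 35116 entries include every listed start of a gene, so the shares are not strictly alike. ABCF2 and ABCF2-H2BK1 have the same window, which is counted for each of them in the GC box and CCAAT shares. The TATA box TATAAA stood in 16.7% of the ABC promoters and 10.7% of all entries, and the E-box CACGTG in 16.7% and 6.34%. The cyclic AMP response element (CRE) TGACGTCA was in the ABCE1 promoter alone among the ABC genes and in 1.65% of all entries. The NRF1 site and the perfect DR4 repeat, a form read by liver X receptors, matched no ABC promoter, and 1.03% and 0.0142% of all entries. Imperfect DR4 repeats were not searched. With so few matches over all entries, a match among 36 ABC promoters was unlikely, so the search does not show whether they hold such sites. ABCB11, ABCC11 and ABCC12, which changed by 2-fold or more, held none of the 7 motifs in these windows. The 6 ABC promoters with an E-box belonged to genes that were higher (ABCB9), lower (ABCA1, ABCB6 and ABCF1), not called (ABCC10) and not tested (ABCA9).

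Genes for the export of cholesterol and phospholipid moved apart. ABCA7, a close relative of ABCA1 that moves phospholipid, rose (chromosome 19, 1039997 to 1065572). Control libraries held 966 and 791 counts and knockdown libraries 2026 and 1606, that is 10.3 ± 0.751 and 23.1 ± 4.09 TPM (SD, n = 2). The log2 fold change was 1.11 (standard error 0.0929, edgeR, adjusted p = 2.08e-07). Both shUBXN1 libraries lay above both shCon libraries, and they differed from each other more than the control libraries did. ABCG4, which passes sterol to lipoproteins, rose from 3 and 1 counts to 20 and 31 (chromosome 11, 119149052 to 119162653). It reached 0.686 and 1.04 TPM in shUBXN1 and so remained a gene of low level. The ratio of its summed, scaled counts was 13.3 with a 95% counting interval of 4.88 to 50.6, and the fitted log2 fold change was 3.66 (standard error 0.687, edgeR, adjusted p = 0.000404). ABCG4 passed the filter only through the shUBXN1 libraries, so its test is a description. The fitted value was 4.48 without shCon replicate 1 and 3.17 without shCon replicate 2.

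ABCA1, which loads cholesterol and phospholipid onto apolipoprotein A-I, was at 8.26 and 8.01 TPM in shCon and 8.07 and 6.43 TPM in shUBXN1. In TPM the first knockdown library lay within the control range, whereas in CPM both knockdown libraries lay below it. The ABCA1 log2 fold change of -0.23 passed the threshold (edgeR, adjusted p = 0.0422), but 8 of 15 other settings gave an adjusted p above 0.05. ABCG1, the partner of ABCA1 in sterol efflux to high-density lipoprotein, stood at 1.29 TPM in shCon and 1.52 TPM in shUBXN1 and was not called (log2 fold change 0.18, standard error 0.295). The summed TPM of these 4 genes was 20.5 and 19.1 in shCon and 36.3 and 29.3 in shUBXN1, a difference carried mainly by ABCA7.

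Among the other lipid transporters of the ABCA subfamily, ABCA3 and ABCA4 had the largest called changes, in opposite directions. ABCA3 (chromosome 16, 2275881 to 2340746), known for packing surfactant lipid into lamellar bodies of the lung, went from 274 and 219 counts to 708 and 746. Its level rose from 2.98 ± 0.268 to 9.55 ± 0.226 TPM (SD, n = 2), a log2 fold change of 1.62 (standard error 0.113, edgeR, adjusted p = 3.47e-08). The replicates of each group lay close together and the groups did not overlap. ABCA4 (chromosome 1, 93992834 to 94121148), known as the retinoid flippase of photoreceptors, fell from counts of 1159 and 1103 to 451 and 477. That was 12.4 ± 0.412 TPM in shCon and 5.49 ± 0.145 TPM in shUBXN1 (SD, n = 2), a log2 fold change of -1.23 (standard error 0.0946, edgeR, adjusted p = 8.88e-08). ABCA2, a transporter of endosomes and lysosomes, was the most abundant member of the subfamily and rose from 22.3 and 20.7 TPM to 34.8 and 26.5 TPM (log2 fold change 0.45, edgeR, adjusted p = 0.000717).

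ABCA5, ABCA6, ABCA8, ABCA9 and ABCA10 lie side by side on chromosome 17 and were low or barely detected. ABCA5 was at 2.48 TPM in shCon and 2.18 TPM in shUBXN1 and was not called. ABCA6 (log2 fold change 0.57) and ABCA10 (-1.24) were below 1 TPM and not called, with standard errors of 0.440 and 0.542. ABCA8 and ABCA9 did not pass the filter, where their summed counts went from 14 to 6 and from 6 to 15, respectively. ABCA13, at 0.0582 TPM in shCon, was not called either (standard error 0.583).

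The canalicular exporters of bile were also split. ABCB11, the bile salt export pump (chromosome 2, 168915498 to 169031324), rose from 1.35 ± 0.171 to 3.26 ± 0.501 TPM (SD, n = 2). The estimated counts went from 133.68 and 101.48 to 286.46 and 234.7, with a log2 fold change of 1.21 (standard error 0.170, edgeR, adjusted p = 3.13e-05). ABCB4, the floppase that delivers phosphatidylcholine to bile, fell from 3.57 and 3.47 TPM to 2.44 and 2.10 TPM (log2 fold change -0.70, edgeR, adjusted p = 0.00559). ABCC2 (MRP2), the exporter of bilirubin glucuronides and glutathione conjugates (chromosome 10, 99782640 to 99852594), fell by 0.29 on the log2 scale (standard error 0.0785, edgeR, adjusted p = 0.00546). The counts went from 21596.03 and 18520 to 15854 and 15529. The ABCC2 groups did not overlap, and 81.6% of the control level was left. With shCon replicate 1 or 2 left out, the log2 fold change was -0.27 or -0.33 and the call was lost (edgeR, adjusted p = 0.0804 and 0.127), the lone control library being assumed to vary like the knockdown libraries.

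ABCG5 and ABCG8, whose proteins pair to export sterol into bile, did not pass the filter. ABCG5 had 1 and 1 counts in shCon and 4 and 4 in shUBXN1, a ratio of 4.17 with a 95% counting interval of 0.831 to 40.3. ABCG8 had 5 and 0 counts in shCon and 6 and 7 in shUBXN1, with an interval from 0.906 to 9.70. A difference was not detectable at this depth for either gene. In the same libraries 7 of 11 hepatocyte and liver cancer markers tested were lower and 2 were higher, against 28.2% and 28% of all genes tested, and their part in the changes of the bile exporters was not tested.

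Of the classical multidrug exporters, 1 of 2 passed the threshold, where 56.2% of all genes tested did so in either direction. ABCG2 (BCRP) was at 66.1 and 65.5 TPM in shCon and 67.0 and 71.3 TPM in shUBXN1, and its log2 fold change of 0.01 had a standard error of 0.0800. ABCB1 (P-glycoprotein) was at 17.1 and 16.5 TPM in shCon and 14.5 and 15.3 TPM in shUBXN1, with a log2 fold change of -0.23 (edgeR, adjusted p = 0.0413). Its call was lost under 8 of 15 other settings. ABCB1 and ABCB4 are neighbours on chromosome 7, separated by 22.6 kb, and both were lower.

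In the MRP group of the ABCC subfamily, which exports organic anions, conjugates and nucleotides, 2 of 8 genes rose, 3 fell and 3 were not called, where 28% of all genes tested were higher and 28.2% lower. ABCC5 (MRP5), an exporter of cyclic nucleotides (chromosome 3, 183919934 to 184017939), went from 1695 and 1449 counts to 3395 and 3361. It rose from 21.7 ± 0.923 to 50.6 ± 1.03 TPM (SD, n = 2), a log2 fold change of 1.16 (standard error 0.0735, edgeR, adjusted p = 1.36e-08). The estimate stayed between 1.12 and 1.25 under all 15 other settings. ABCC1 (MRP1), an exporter of glutathione conjugates (chromosome 16, 15949138 to 16143257), held 7418 and 6404 counts in control and 7454 and 7775 after knockdown, or 83.8 ± 2.98 and 100 ± 1.65 TPM (SD, n = 2). Its log2 fold change of 0.20 (standard error 0.0773, edgeR, adjusted p = 0.0383) was no longer past the threshold with shCon replicate 1, shCon replicate 2 or shUBXN1 replicate 2 left out, nor after the trend on GC content was removed (edgeR, adjusted p = 0.104 to 0.416).

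ABCC3 (MRP3), the exporter of conjugates at the blood-facing side of the hepatocyte, fell. It was at 102 and 95.8 TPM in shCon and 66.3 and 52.0 TPM in shUBXN1, with 57.2% of the control level left (log2 fold change -0.81, edgeR, adjusted p = 2.16e-06). The groups stood apart, although the shUBXN1 libraries differed from each other by more than the shCon libraries. ABCC11 and ABCC12, which lie 9.8 kb apart on chromosome 16, were both low and both fell. ABCC11 (48165773 to 48247568) fell from 48.27 and 30.55 counts to 16.73 and 14.28 (log2 fold change -1.28, standard error 0.434, edgeR, adjusted p = 0.0215). ABCC12 (48080882 to 48156018) fell from 18 and 17 counts to 4 and 5, a ratio of 0.268 with a 95% counting interval of 0.113 to 0.568 (log2 fold change -1.87, standard error 0.594, edgeR, adjusted p = 0.0151). ABCC12 passed the filter only through the shCon libraries, so its test is a description. Under DESeq2 the log2 fold changes were -1.28 and -1.90 and neither gene was called (adjusted p = 0.0798 and 0.107). The ABCC12 call was also lost with any 1 library left out (edgeR, adjusted p = 0.0631 to 0.149), and that of ABCC11 without shCon replicate 1 (0.223) or shUBXN1 replicate 2 (0.0675). The gene LONP2, on the strand opposite to ABCC11, covers 3.4% of its exon bases and was lower too.

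ABCC4 (MRP4) was at 8.06 and 7.93 TPM in shCon and 6.34 and 7.33 TPM in shUBXN1, just outside the threshold (log2 fold change -0.28, edgeR, adjusted p = 0.0504). ABCC10 (0.20) and ABCC6 (-0.04, standard error 0.173) were not called. ABCC6 has the near-identical pseudogenes ABCC6P1 and ABCC6P2, which held 81.86 and 51.88 counts in the first shCon library against 230.26 for ABCC6, so its value is uncertain. The regulators of ATP-sensitive potassium channels were ABCC9, at 2.02 TPM in shCon and 2.07 TPM in shUBXN1 (log2 fold change -0.03, standard error 0.149), and ABCC8, with no count.

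**Figure D3:**
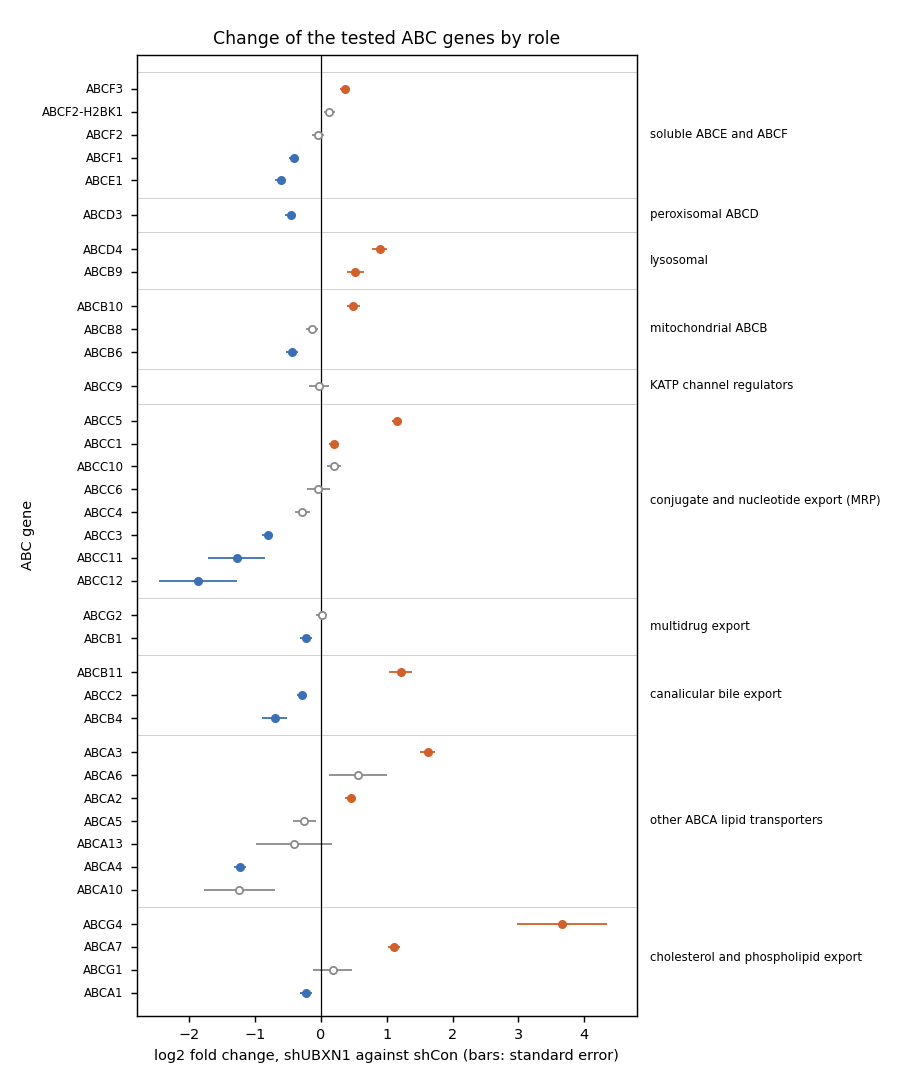
Log2 fold change of shUBXN1 over shCon (x axis) for 36 of the tested ABC genes (y axis), grouped by role, with bars for the standard error, orange for genes higher, blue for genes lower and open grey circles for genes not called. The 2 lysosomal genes lie above 0, at 0.52 and 0.89, and ABCD3 and ABCE1 lie below 0, at -0.46 and -0.61.

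Transporters of the organelles moved in both directions. Of the mitochondrial genes, ABCB10, which acts in heme synthesis, rose from 18.1 and 15.7 TPM to 23.6 and 25.7 TPM (log2 fold change 0.49, edgeR, adjusted p = 0.000637). ABCB8, of the inner membrane, was not called (-0.13, standard error 0.0925).

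ABCB6, a porphyrin transporter, was lower as counted, at 23.5 and 22.0 TPM in shCon and 17.7 and 17.3 TPM in shUBXN1 (log2 fold change -0.44, edgeR, adjusted p = 0.000801). A read-through gene (ENSG00000284820) that spans ABCB6 and part of the neighbouring ATG9A covers 54.6% of the exon bases of ABCB6 on the same strand. It went from 716.2 and 669.83 counts to 940.31 and 885.07 and was higher. When the counts of both genes were summed, the log2 fold change was 0.03 (edgeR, adjusted p = 0.739). The read-through counts can include reads from outside ABCB6, so the sum does not settle the change of ABCB6. The part of the division of reads between these genes was not tested.

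Both lysosomal genes rose, where 28% of all genes tested were higher. ABCD4, which takes part in the release of cobalamin from lysosomes, went from 10.8 and 9.34 TPM to 22.2 and 16.9 TPM (log2 fold change 0.89, edgeR, adjusted p = 1.80e-05). ABCB9, a peptide transporter of the lysosome, went from 5.92 ± 0.168 to 8.82 ± 0.321 TPM (SD, n = 2, log2 fold change 0.52, edgeR, adjusted p = 0.00351). For both genes each shUBXN1 library lay above each shCon library, as it did for every ABC gene called higher. OGFOD2 and ARL6IP4, on the opposite strand, cover 12.5% and 12.0% of the exon bases of ABCB9, and both were lower in shUBXN1. The noncoding gene ENSG00000256028, also on that strand, covers 20.7% of them. For ABCD4, the noncoding gene ENSG00000258559 covers 7.0% of the exon bases on the same strand. The part of these overlaps in the rises was not tested.

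Among the peroxisomal transporters, ABCD3 fell. ABCD3, which imports branched-chain acids and bile acid precursors, was at 48.7 and 48.5 TPM in shCon and 35.9 and 37.8 TPM in shUBXN1 (log2 fold change -0.46, edgeR, adjusted p = 0.000233). The ABCD3 groups did not overlap. ABCD2, another peroxisomal transporter, had 2 counts in shCon and 0 in shUBXN1.

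The soluble ABC proteins of translation were among the most abundant members. ABCE1, which splits ribosomes after termination (chromosome 4, 145098288 to 145129524), went from 6928 and 6040 counts to 3905.98 and 4220.96. It fell from 133 ± 3.83 to 90.7 ± 3.77 TPM (SD, n = 2), a log2 fold change of -0.61 (standard error 0.0802, edgeR, adjusted p = 1.62e-05). ABCF1, a partner of initiation factor eIF2, fell from 76.1 and 76.6 TPM to 58.0 and 62.0 TPM (log2 fold change -0.41, edgeR, adjusted p = 0.000668). ABCF3 moved the other way, from 55.2 and 55.7 TPM to 77.0 and 71.5 TPM (log2 fold change 0.36, edgeR, adjusted p = 0.000738). ABCF2 and ABCF2-H2BK1 share exons, with the latter covering 37.1% of the exon bases of ABCF2, and neither was called. Their summed counts gave a log2 fold change of 0.03 (edgeR, adjusted p = 0.760).

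Compared by subfamily, ABCC genes held 39.8% to 41.4% of the family's TPM in each library, and ABCF genes 17.4% to 19.4%. The ABCA share was 4.84% and 4.73% in shCon and 7.37% and 6.25% in shUBXN1. The ABCE share, a single gene, was 10.9% in both shCon libraries and 7.46% and 8.18% in shUBXN1. The ABCB share lay between 11.1% and 11.8% in every library. Among all genes tested, 28% were higher and 28.2% lower. Calls in both directions were seen within ABCA (3 of 9 tested genes higher, 2 lower), ABCB (3 of 8 higher, 3 lower), ABCC (2 of 10 higher, 4 lower) and ABCF (1 of 4 higher, 1 lower), and in ABCD, where ABCD4 rose and ABCD3 fell. In ABCG 1 of 3 tested genes was called, ABCG4. With 1 to 10 tested genes each, the subfamilies were described and not tested against each other.

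**Figure D4:**
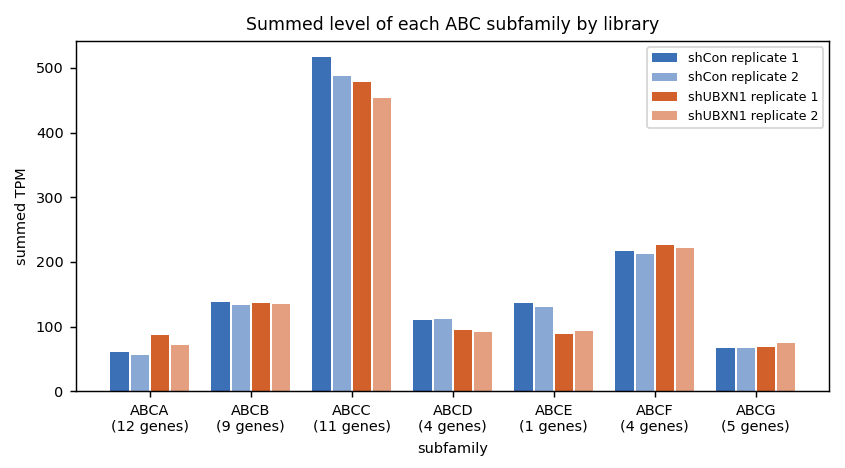
Summed TPM (y axis) of each ABC subfamily (x axis, with its number of genes) in each of the 4 libraries, shCon in blue and shUBXN1 in orange. ABCC is the highest at 454 to 516 TPM, and ABCE falls from 131 to 136 TPM in shCon to 88.0 to 93.4 TPM in shUBXN1.

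Genes that work with ABC proteins were read from 10 lists, and the largest call of a list in a direction is named. The counts stand beside 28% higher and 28.2% lower among all genes tested. Of 14 tested genes of the liver X receptor axis, which drives sterol export, 5 were higher and 7 lower. The largest rise was that of APOE (log2 fold change 3.16), a lipoprotein acceptor of cellular cholesterol, and the largest fall that of SREBF1 (-1.07), a lipogenic transcription factor. Of 12 tested regulators of xenobiotic and bile acid genes, 4 rose and 4 fell, with the largest rise that of ARNT (1.03). NR1H4, the bile acid receptor FXR, was lower (-0.55) and is named after its value was seen.

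Among 8 tested solute carriers of the hepatocyte, SLCO1B3, an uptake carrier of organic anions, was higher (1.01) and 3 genes were lower. The largest fall was that of SLC51B, a subunit of the basolateral bile acid exporter (-2.03). In glutathione synthesis and conjugation, which supplies substrates of ABCC1 and ABCC2, 10 of 17 tested genes were lower and 3 higher (28.2% and 28% of all genes tested), with a median log2 fold change of -0.29 against 0.02 over all genes tested. GSTA2 fell by 2.32 on the log2 scale, from 48.2 and 46.21 counts in shCon to 14.38 and 3.72 in shUBXN1. GSTA2 passed the filter only with the shCon libraries, so its test is a description. GSTT2B rose by 1.49. The rate-limiting synthesis genes GCLC (-0.88) and GCLM (-1.04), named after their values were seen, were lower.

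Of 28 peroxisomal genes, 12 were lower and 7 higher (median -0.22), where 28.2% of all genes tested were lower and 28% higher, with PEX10 at -1.14 and the acyl-CoA oxidase gene ACOX3 at 1.25. Of 26 genes of iron-sulfur and heme synthesis, 8 were lower and 5 higher, near or below those shares, with FECH, the last enzyme of heme synthesis, at -1.09 and the mitochondrial iron importer SLC25A37 at 0.97. Of 10 genes of cobalamin handling, 3 were higher and 3 lower, near the same shares. LMBRD1, whose product is the lysosomal partner of ABCD4, was the largest rise at 0.54, and MMUT the largest fall at -0.54.

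In ribosome recycling and GCN2 signaling, 8 of 11 genes were lower and none was higher (median -0.30), where 28.2% of all genes tested were lower. EIF2S2, a subunit of eIF2, fell the most (-0.94). The pore genes of ATP-sensitive potassium channels gave no call, with KCNJ11 at 0.62 (standard error 0.542, adjusted p = 0.355 from edgeR) and KCNJ8 listed at 0. TAP1 and TAP2, the peptide transporter pair left out by the rule, had log2 fold changes of 1.65 and -0.55.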

How the data were processed

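RNA-seq of MHCC97H cells was analysed in 4 libraries, 2 shCon and 2 shUBXN1, made from cells infected with lentivirus. The deposited table held estimated counts per gene, which the authors made from their aligned reads and which were not normalized. The submitters' processing notes name HISAT2 2.0.4, StringTie 1.3.0 and GRCh37, whereas the study's methods name GRCh38. The counting tool, annotation release and strand setting are not given in the sources used here. Of the nonzero values 62.4% to 64.6% were whole numbers.

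Counts were rounded and tested with edgeR 4.0.16 in R 4.3.3 (filterByExpr, TMM scaling, glmQLFit and glmQLFTest, Benjamini-Hochberg adjustment over 16863 genes, adjusted p under 0.05). The design compared the groups without a replicate term. The standard error was taken from the log2 fold change and its F statistic. TPM used the gene lengths listed with the deposited counts. All gene coordinates are from GENCODE 44 (GRCh38), matched by gene ID. Symbols were found for 99.7% of 61541 IDs. Counting intervals are exact 95% Poisson-ratio intervals and cover counting error only. With replicates' counts differing by a chi-square of 3.65 (shCon) and 7.77 (shUBXN1) per gene, no library was a copy of another. The script was tested on simulated data. Alternatives were DESeq2 1.42.0, limma 3.58.1, other scalings and filters, a replicate block, removal of a GC trend, each library left out, and summed read-through counts, the last chosen after the data were seen. Members with a fold change of 2 or more and the 3 of highest mean TPM are given in full. The members, lists and tests were chosen with earlier results of these data known. A few genes are counted among the totals but not reported here by name.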

Additional observations from a re-analysis of the deposited data

How the results depend on the processing

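UBXN1 was lower under all 15 other settings, at log2 fold changes of -2.15 to -1.93. The count of ABC genes higher in shUBXN1 was 10 to 12 under the other settings that kept the adjusted p as the criterion, and that of genes lower was 8 to 14. With a fold of 2 and an unadjusted p under 0.05 the counts were 5 and 4, because that criterion is stricter on size. With 1 library left out they were 10 to 11 and 8 to 13, the lowest count of lower genes being without shCon replicate 1. The median log2 fold change of the ABC genes was -0.0845 against 0.016 over all genes tested. It was 0.00136 against 0.101 with total count scaling and -0.00138 against 0.0568 with limma on log2(TPM + 1). These settings moved the median of all genes upward as well. With no filter on low counts the median of the ABC genes was -0.0448 against 0.0819, where more genes were tested (45 ABC genes among 30333 genes). It was -0.00994 against 0.0115 with at least 10 counts in every library, where fewer ABC genes were tested, -0.129 against 0.000735 with the GC trend removed, -0.0394 against 0.0161 with read-through counts summed, and -0.102 to -0.0429 with 1 library left out. With at least 10 counts in every library, single genes moved upward too. ABCA1 went from -0.23 to -0.20 and ABCG2 from 0.01 to 0.04. For that setting, the GC trend and the libraries left out, the cause was not tested.

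The sign turned for 6 genes, 5 of which were not called to begin with. ABCC6 was at 0.05, ABCC9 at 0.06 and ABCF2 at 0.05 with total count scaling, and each was at 0.02 with limma on log2(TPM + 1). Both settings raised the median of all genes, by more than these genes lay below 0 in the case of total counts. ABCC9 was at 0.02 with the GC trend removed. With read-through counts summed, ABCB6 and ABCF2 were both at 0.03. With 1 library left out the ranges were -1.04 to 0.04 for ABCA13, -0.20 to 0.13 for ABCC6, -0.08 to 0.01 for ABCC9, -0.22 to 0.11 for ABCF2 and -0.10 to 0.11 for ABCG2. For the GC trend and the libraries left out the cause was not tested. Among the genes named here, calls were lost under some settings for ABCA1, ABCB1, ABCC1, ABCC2, ABCC11 and ABCC12, and for ABCB6 with read-through counts summed. Calls were gained under 5 settings for ABCC4, and under 1 each for ABCB8 (GC trend removed), ABCC10 (total count scaling) and ABCF2 (without shUBXN1 replicate 2).

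With a replicate block, 11 ABC genes were higher and 14 lower, ABCC4 being added at -0.29. Libraries with the same number had deviations that correlated at 0.0393, and with 2 pairs the numbers do not show that the libraries were paired. With 2 libraries a group, small differences and genes of few counts are limited by depth and by the spread between libraries.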
